A study of Mus musculus with 11 samples.

Results

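The cytochrome P450 (Cyp), UDP-glucuronosyltransferase (Ugt), glutathione S-transferase (Gst) and sulfotransferase (Sult) genes were followed across 4 compartments of the fetal mouse kidney and ureter. Members were taken by symbol: P450s with a family number, a letter and a gene number, Ugt1 and Ugt2 genes, Gst genes of classes a, m, p, t, k, o and z, and numbered Sult genes. Cyp26a1, Cyp26b1 and Cyp26c1, which break down retinoic acid, were left out. Of 18193 genes with a probe set of their own on the array, 111 were members, and 58 of these passed the filter on dim values and are called measured here, among 13614 genes that passed in all.

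The tissue was kidney and ureter of wild-type CD-1 mice, an outbred stock, at E15.5 (embryonic days, Theiler stage 23), with no treatment named and fetal sex unknown. The groups were early proximal tubule (EPT, 3 arrays), cortical collecting duct (CCD, 2), ureteral smooth muscle (USM, 3) and urothelium, the lining epithelium of the ureter (URO, 3). Each array (Affymetrix mouse genome array, 1 colour) read a pool of about 50 laser-captured sections taken from 5 kidneys, after 2 rounds of RNA amplification. No label states that the pools came from separate animals, so the p-values measure the spread between pools, which may be technical, and the small number of arrays limits the precision.

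These enzymes make lipophilic compounds easier to excrete. P450s add or expose a polar group (phase 1), and Ugt, Gst and Sult enzymes attach glucuronate, glutathione or sulfate (phase 2), after which export pumps move the conjugates into urine or bile. Several P450s also have physiological substrates: vitamin D, oxysterols, steroids and arachidonic acid. The liver is the main site of this chemistry in the adult, and within the adult kidney the proximal tubule carries much of it.

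Levels are given as log2(signal + 55), on which a probe set without any signal would read 5.78. A value near 5.8 is therefore the floor of the scale, and folds against it are smaller than on the raw scale. Levels are compared between arrays for the same probe set, not between genes. A difference is a log2 fold change with its standard error, here from 1 limma model over all 11 arrays, and calls needed both a log2 fold change of 1 or more in size and an adjusted p (Benjamini-Hochberg, over all 13614 genes) under 0.05. Since the series profiles separate parts of the growing kidney, a compartment was first tested against the average of the 3 remaining ones.

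Most of the called differences were in proximal tubule and smooth muscle. Of the 58 measured members, 22 were higher in early proximal tubule and 3 were lower, against 9.53% higher and 6.41% lower over all genes tested. In collecting duct 2 members were higher and 0 lower (all genes: 1.42% and 0.624%), with 17 members at an unadjusted p under 0.05 in either direction. In ureteral smooth muscle 1 member was higher and 16 were lower (all genes: 6.05% and 9.12%). In urothelium 2 were higher and 4 lower (all genes: 1.65% and 0.713%). The median log2 fold change of the measured members was 0.23 in proximal tubule, 0 in collecting duct, -0.59 in smooth muscle and -0.17 in urothelium, beside 0.05, -0.03, -0.07 and 0.01 over all genes.

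The filter bears on these counts. A gene had to lie above its array's median in at least 2 arrays, and 11 members passed through proximal tubule arrays alone, of which 10 were among the 22. Without the filter, 21 of all 111 members were called higher in proximal tubule, against 6.65% of the 18193 genes in that fit. The 53 members that did not pass had at most 1 array above its median (1 array for 9 members, none for 44) and read no higher than 8.94 in any array. In bulk tissue, fewer cells of a type and less RNA per cell cannot be told apart.

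**Figure D1:**
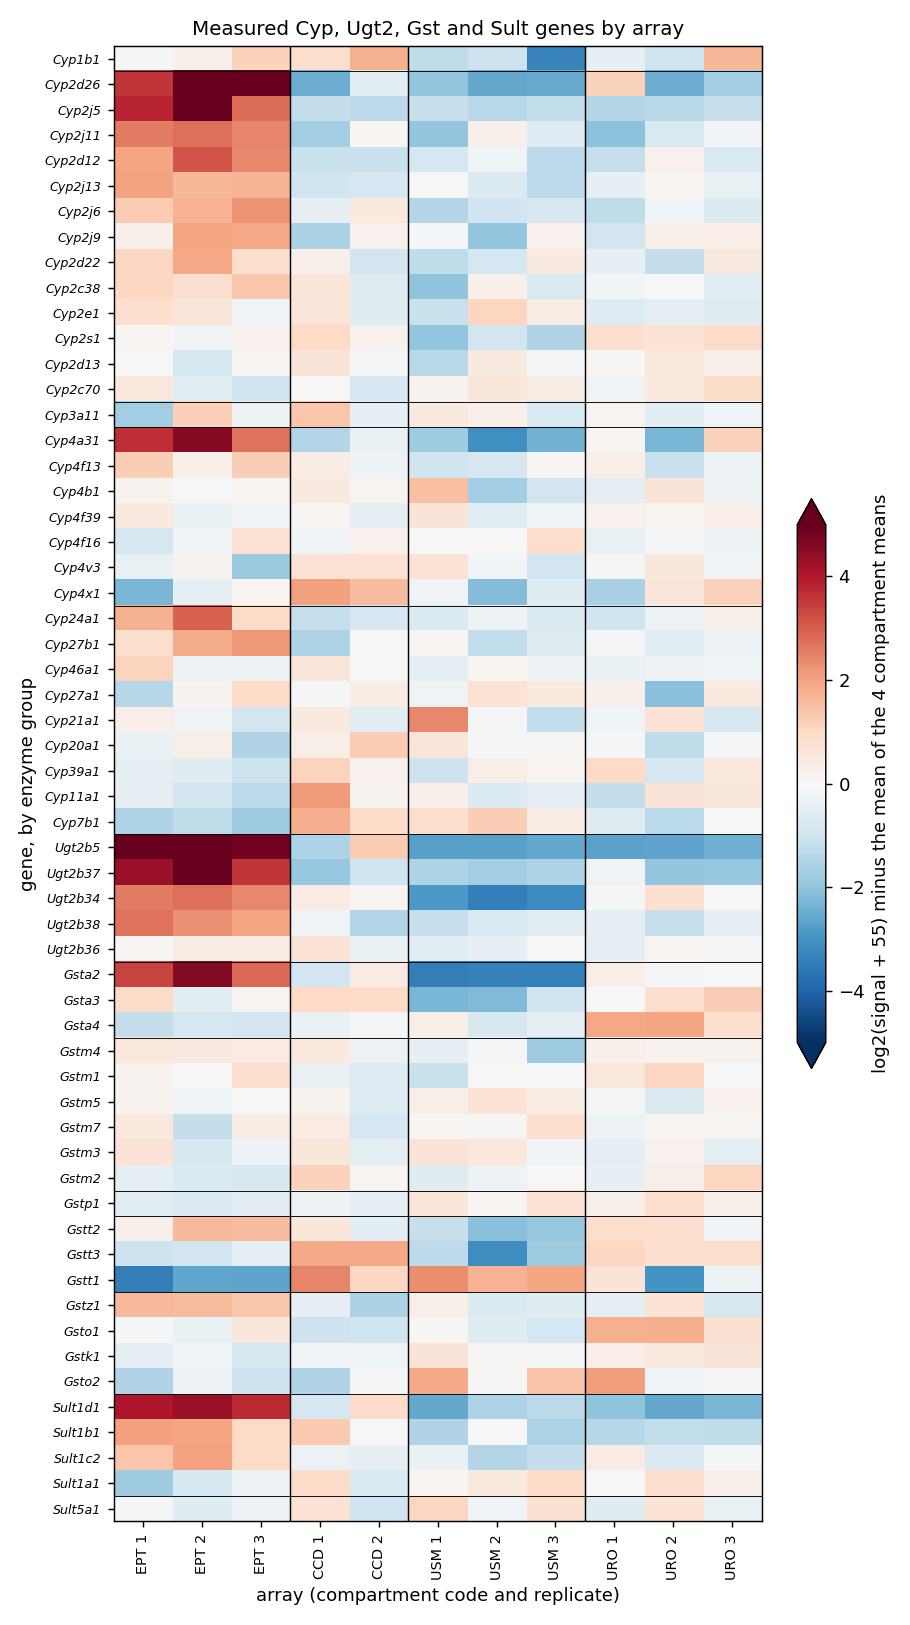
Each row is a measured gene and each column an array; colour gives log2(signal + 55) minus the mean of the 4 compartment means, from blue (lower) to red (higher), and lines separate the enzyme groups and the compartments. Red blocks in the 3 EPT columns mark most Cyp2d, Cyp2j and Ugt2b genes, Cyp4a31, Gsta2 and Sult1d1, while the Gstm rows stay pale in every column.

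**Figure D2:**
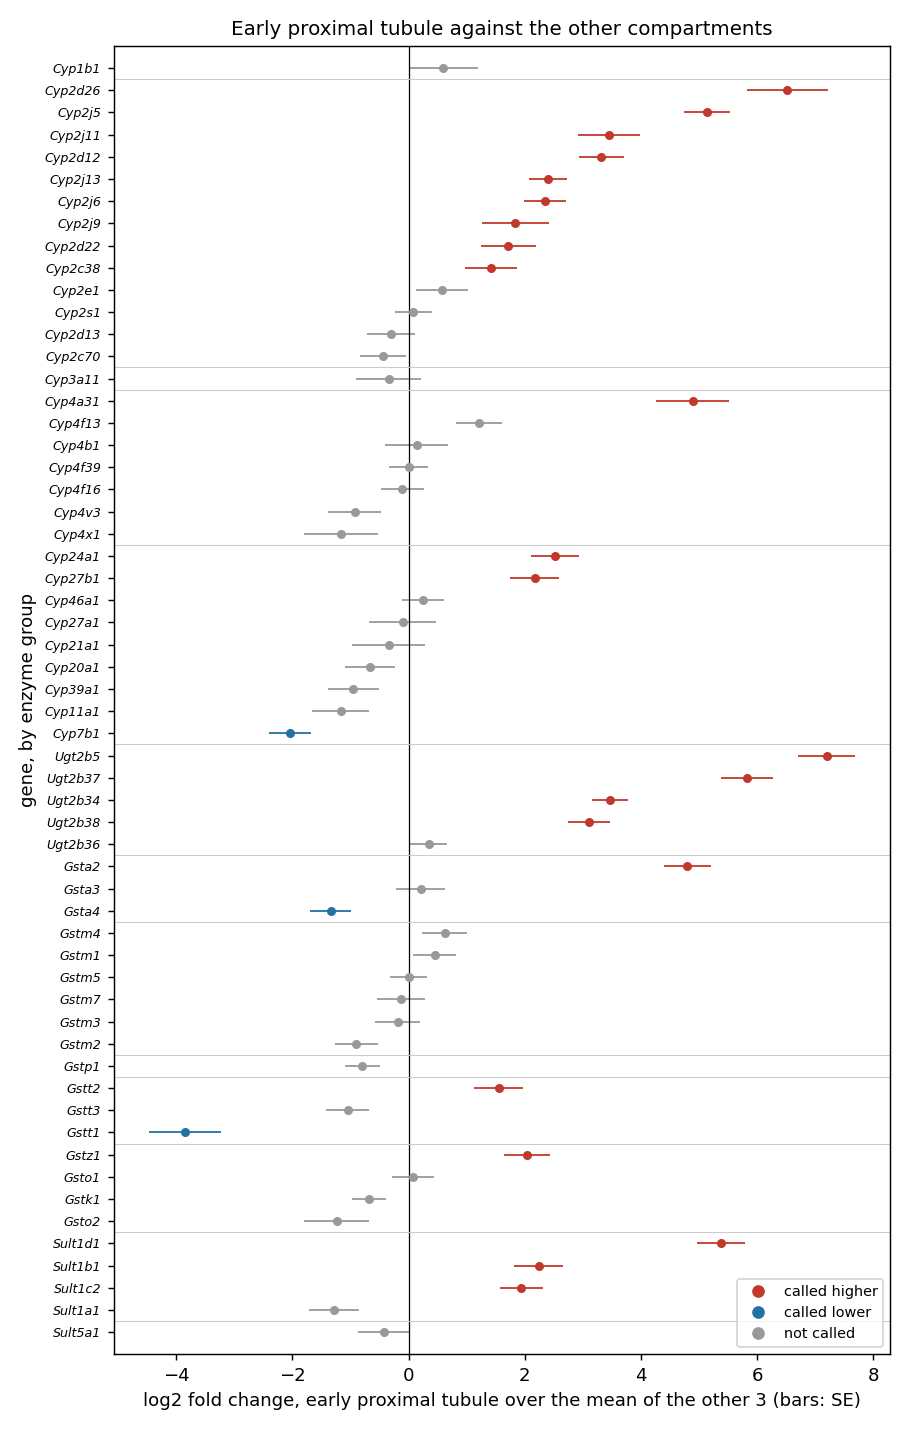
Points give the log2 fold change of early proximal tubule over the mean of the other 3 compartments for each of the 58 measured genes, with bars of 1 standard error; red points were called higher (22), blue points lower (3) and grey points neither. Ugt2b5 is farthest to the right at 7.20 and Gstt1 farthest to the left at -3.85.

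The arrays carried marks of their tissue. All 10 proximal tubule markers (among them Lrp2, Cubn and Slc34a1) were called higher in early proximal tubule, and their summed signal was 102768 to 182162 there, against 3104 and 8534 in collecting duct, 2851 to 3719 in smooth muscle and 3485 to 10452 in urothelium. Of these 10, 1 was also called higher in muscle, and Aqp1 overlapped between muscle (10.58 to 10.96) and tubule (10.17 to 11.68). Of 10 smooth muscle markers 9 were higher in muscle, where their sum was 324595 to 394527. The same sum was 75038, 44166 and 15973 in the 3 urothelium arrays, against 3402 to 7060 in tubule and 4152 and 4457 in collecting duct. The interstitial marker sum was 69107 to 135867 in urothelium, against 315555 to 455888 in muscle; the part of muscle or stromal RNA in the urothelium values was not tested. Of 10 collecting duct markers 7 were higher in collecting duct, 2 in urothelium and 1 in tubule. Of 8 measured urothelial markers 6 were higher in urothelium and 1 in collecting duct. The array nearest to collecting duct replicate 2 was urothelium replicate 3 (r = 0.909 across the array, against 0.905 with its own replicate). Urothelium replicate 2 stood apart in RNA quality, with a Gapdh 3'/5' ratio of 55.3, against 6.79 to 29.7 in the other arrays, and its best correlation with any array was the lowest of the 11 (0.886). A date-like part of the labels splits the arrays into 4 label batches, whose meaning is not stated, and urothelium shares none with proximal tubule or collecting duct.

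Phase 2 enzymes that attach glucuronate held the largest difference. Ugt2b enzymes conjugate steroids, bile acids and foreign compounds. Of 8 Ugt2 genes on the array 5 were measured, all Ugt2b. Of these, 4 were higher in early proximal tubule (all genes: 9.53%): Ugt2b5, Ugt2b37, Ugt2b34 and Ugt2b38. Ugt2b37 and Ugt2b38 passed the filter only through tubule arrays, so the filter bears on this count. All measured Ugt2b genes lie on chromosome 5. The 100 bases before the start of each are shown because the members that moved together include 3 whose upstream sequence is nearly the same. The sequences are from RefSeq (GRCm38.p6), minus strand, and run 5′ to 3′ up to the base before the gene's start. Capitals mark a run of 62 bases that Ugt2b5, Ugt2b37 and Ugt2b38 share letter for letter:
Ugt2b5: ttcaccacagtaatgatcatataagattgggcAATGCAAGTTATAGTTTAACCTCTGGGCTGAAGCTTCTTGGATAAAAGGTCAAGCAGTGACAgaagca
Ugt2b37: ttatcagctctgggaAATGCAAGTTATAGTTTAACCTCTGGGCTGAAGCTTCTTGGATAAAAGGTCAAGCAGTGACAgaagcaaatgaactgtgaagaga
Ugt2b38: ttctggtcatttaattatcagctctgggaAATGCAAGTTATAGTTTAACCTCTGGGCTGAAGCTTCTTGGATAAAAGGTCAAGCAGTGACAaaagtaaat
Ugt2b34: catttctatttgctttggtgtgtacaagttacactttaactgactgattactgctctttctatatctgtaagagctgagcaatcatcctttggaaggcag
Ugt2b36: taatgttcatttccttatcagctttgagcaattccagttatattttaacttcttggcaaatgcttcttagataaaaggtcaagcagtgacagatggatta
The windows are chr5:87140341-87140440 (Ugt2b5), chr5:87254789-87254888 (Ugt2b37), chr5:87424204-87424303 (Ugt2b38), chr5:86906938-86907037 (Ugt2b34) and chr5:87092556-87092655 (Ugt2b36).

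Of the 27025 genes in the RefSeq promoter table, those 3 were the ones that held the run of 62 bases. The longest run shared by Ugt2b37 and Ugt2b38 was 82 bases. Ugt2b36, the measured Ugt2b gene that was not called, shared runs of 22 to 24 bases with the same 3 genes. Ugt2b34, which was called, shared no more than 9 bases with any of the others. Shared letters describe the windows and say nothing of what binds there.

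Ugt2b5 read 13.84, 14.75 and 13.4 in early proximal tubule, against 7.05 and 9.85 in collecting duct, 5.88, 5.87 and 6.03 in smooth muscle and 5.91, 5.96 and 6.14 in urothelium. Smooth muscle and urothelium sat at the floor, and the lowest tubule array was far above the higher collecting duct array. The log2 fold change against the mean of the others was 7.20 ± 0.49 (adjusted p = 2.43e-06, limma).

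Ugt2b37 read 12.19, 13.13 and 11.48 in early proximal tubule, against 6.01 and 6.9 in collecting duct, 6.35, 6.15 and 6.35 in smooth muscle and 7.73, 5.96 and 6.0 in urothelium. All arrays outside the tubule were near the floor except urothelium replicate 1. The log2 fold change was 5.83 ± 0.45 (adjusted p = 5.22e-06, limma).

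Ugt2b34 had another pattern. It read 13.24, 13.39 and 13.03 in early proximal tubule, 11.03 and 10.78 in collecting duct, 10.57, 11.45 and 10.64 in urothelium, and 7.77, 7.21 and 7.48 in smooth muscle. The epithelia were thus all well above muscle, with the tubule highest, and no array of the tubule or of muscle overlapped the others. Against the mean of the others it was 3.46 ± 0.31 higher in tubule (adjusted p = 1.13e-05, limma) and -4.18 ± 0.31 in muscle (adjusted p = 4.25e-06, limma). Ugt2b38 rose by 3.11 ± 0.36 in tubule (adjusted p = 7.13e-05, limma), at 9.96 to 10.71 there and 6.52 to 7.79 elsewhere. Ugt2b36 read 8.2 to 8.52 in tubule and 7.57 to 8.84 elsewhere, with a log2 fold change of 0.35 ± 0.32 (adjusted p = 0.514, limma).

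Because Ugt2b sequences are so alike, probes of this family may read each other's RNA, and the values of Ugt2b5, Ugt2b37 and Ugt2b38 are uncertain as values of single genes. A second probe set of Ugt2b34 gave 3.02 ± 0.43 in tubule. The Ugt1a genes, which include the enzyme that conjugates bilirubin, have no probe set of their own: 3 probe sets are annotated to 8 Ugt1a symbols each and stay outside the counts. Those 3 read 12.53 to 16.5 in early proximal tubule, 8.71 to 12.64 in collecting duct, 6.16 to 9.31 in smooth muscle and 6.06 to 13.31 in urothelium. Their tubule arrays did not overlap with the other arrays within any of the 3 probe sets, and no single Ugt1a gene is named from them.

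Among phase 1 enzymes, the Cyp2 family, which oxidises drugs and fatty acids, held 9 of the 22 genes higher in proximal tubule, out of 13 measured and 35 on the array. Over all genes 9.53% were higher there. They were Cyp2d26, Cyp2j5, Cyp2j11, Cyp2d12, Cyp2j13, Cyp2j6, Cyp2j9, Cyp2d22 and Cyp2c38, and 0 Cyp2 genes were lower there. All 5 measured Cyp2j genes were in this set, with log2 fold changes of 1.84 to 5.14, and so were 3 of 4 measured Cyp2d genes (8 on the array). Cyp2d12 and 3 of the Cyp2j genes passed the filter only through tubule arrays. The Cyp2j genes lie on chromosome 4 and the Cyp2d genes on chromosome 15, and as close paralogs they may share probe signal.

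Cyp2d26, a relative of the human drug-metabolising CYP2D6, read 12.14, 13.8 and 14.41 in early proximal tubule. It read 6.08 and 8.0 in collecting duct, 6.59, 6.02 and 6.04 in smooth muscle and 9.7, 6.07 and 6.82 in urothelium. Every tubule array was above every other array, and urothelium replicate 1 was the highest of the rest. The log2 fold change was 6.52 ± 0.70 (adjusted p = 4.28e-05, limma). Its paralog Cyp2d12 rose by 3.32 ± 0.39 (adjusted p = 8.26e-05, limma), at 9.36 to 10.51 in tubule and 6.07 to 7.59 elsewhere.

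Cyp2j5, an epoxygenase of arachidonic acid that is abundant in mouse kidney, read 11.29, 12.44 and 10.26 in early proximal tubule, against 6.28 and 6.17 in collecting duct, 6.31, 6.1 and 6.23 in smooth muscle and 6.01, 6.1 and 6.31 in urothelium. The 8 other arrays lay within 6.01 to 6.31, close to the floor. The log2 fold change was 5.14 ± 0.40 (adjusted p = 5.22e-06, limma). Cyp2j6 differed in having signal everywhere: 11.82, 12.29 and 12.79 in tubule, 10.13 and 11.02 in collecting duct, 9.08, 9.52 and 9.75 in smooth muscle and 9.26, 10.36 and 9.84 in urothelium, with a log2 fold change of 2.35 ± 0.36 (adjusted p = 0.000639, limma). A second Cyp2j6 probe set gave 1.40 ± 0.57 in tubule. There tubule (10.21, 10.71 and 8.53) overlapped with collecting duct (8.97 and 10.34), and muscle read 6.57 to 7.97. Cyp2j11 rose by 3.45 ± 0.53 and Cyp2j13 by 2.40 ± 0.33 (adjusted p = 0.000669 and 0.000281, limma).

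The smallest Cyp2 differences were less secure. Cyp2j9, at 1.84 ± 0.57 (adjusted p = 0.0428, limma), was called in the comparison with the mean of the others and in 0 of the 3 pairs of tubule with another compartment, and its arrays overlapped: 8.2 to 9.93 in tubule, 6.02 to 8.28 elsewhere. It lost its call without collecting duct replicate 1, smooth muscle replicate 2 or urothelium replicate 1. Cyp2d22 rose by 1.72 ± 0.47 and its other probe set gave 2.87 ± 0.35; the call was lost without collecting duct replicate 2 or tubule replicate 1 or 2. Cyp2c38 rose by 1.42 ± 0.44 (adjusted p = 0.0443, limma), a call lost without any 1 of the 3 tubule arrays, collecting duct replicate 2, smooth muscle replicate 3, or urothelium replicate 1 or 3. Cyp2e1, the ethanol-oxidising P450, read 8.37 to 9.39 in tubule and 7.44 to 9.63 elsewhere and was not called.

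In the Cyp4 family of fatty acid hydroxylases, 1 of 7 measured members (13 on the array) was higher in proximal tubule. Over all genes 9.53% were higher there, so this count is not read as a result of the family. Cyp4a31 read 13.92, 14.82 and 12.95 in early proximal tubule, against 8.75 and 9.88 in collecting duct, 8.45, 7.15 and 7.85 in smooth muscle and 10.31, 7.96 and 11.38 in urothelium. No array of another compartment reached the tubule, although urothelium spread widely. The log2 fold change was 4.89 ± 0.63 (adjusted p = 0.000172, limma). A probe set annotated to both Cyp4a31 and Cyp4a10 read 9.4, 10.45 and 10.04 in tubule and at most 7.88 in the other arrays. The other Cyp4 genes did not share this: Cyp4v3, for example, read 8.11 to 10.15 in tubule and 9.02 to 10.72 elsewhere. The measured member of the Cyp3 family, Cyp3a11, overlapped across all compartments (6.02 to 8.96 in tubule).

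Both ends of vitamin D metabolism were higher in proximal tubule. Cyp27b1 makes the active hormone and Cyp24a1 breaks it down. Cyp24a1 read 9.77, 10.92 and 8.92 in early proximal tubule, against 6.84 and 7.14 in collecting duct, 7.27, 7.72 and 7.26 in smooth muscle and 7.0, 7.69 and 8.22 in urothelium. The tubule arrays lay above all others, and the log2 fold change was 2.52 ± 0.42 (adjusted p = 0.00105, limma). Cyp27b1 read 8.57, 9.53 and 9.85 in tubule, against 6.16 and 7.71 in collecting duct, 7.82, 6.46 and 7.07 in smooth muscle and 7.59, 7.13 and 7.41 in urothelium. It too was above all other arrays, by 2.17 ± 0.42 (adjusted p = 0.00346, limma). Both calls were lost with the label batch as a fixed term, at 2.19 ± 0.70 for Cyp24a1 and 2.04 ± 0.48 for Cyp27b1 (adjusted p = 0.139 and 0.0531, limma). Vdr, the receptor for the hormone, read 9.44, 9.8 and 9.23 in tubule and 6.25 to 7.64 elsewhere, a log2 fold change of 2.95 ± 0.34 (adjusted p = 7.84e-05, limma).

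One P450 went the other way. Cyp7b1, the oxysterol hydroxylase of the alternative bile acid route, read 10.06, 10.3 and 9.8 in early proximal tubule, against 13.39 and 12.52 in collecting duct, 12.46, 12.81 and 11.96 in smooth muscle and 10.97, 10.24 and 11.56 in urothelium. Collecting duct and muscle were high, tubule and urothelium low, and tubule and urothelium overlapped. It fell by 2.04 ± 0.36 in tubule on the log2 scale (adjusted p = 0.00175, limma) and rose by 1.83 ± 0.42 in collecting duct (adjusted p = 0.0407, limma). The collecting duct call was lost without either collecting duct array, any tubule array, smooth muscle replicate 1 or 3, or urothelium replicate 1. A second probe set gave -2.64 ± 0.43 in tubule. Of the 9 measured P450s outside families 1 to 4, Cyp20a1 was called in no compartment, at 10.98 to 12.78 in tubule and 11.21 to 13.74 elsewhere. The steroid-synthesis enzymes Cyp11a1 and Cyp21a1 were not called either, and Nr5a1 and Star, markers of steroid-making cells, were not called in any compartment.

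The Sult1 family acts on phenols, catecholamines and thyroid hormone. Of its 4 measured members (6 on the array), 3 were higher in proximal tubule (all genes: 9.53%). Sult1b1 and Sult1c2 passed the filter only through tubule arrays, so the filter bears on this count. Sult1d1, a catecholamine sulfotransferase in the mouse, read 12.59, 12.87 and 12.26 in early proximal tubule, against 7.7 and 9.5 in collecting duct, 5.98, 6.98 and 7.2 in smooth muscle and 6.53, 5.98 and 6.26 in urothelium. On this probe set collecting duct came next and muscle and urothelium were near the floor. The log2 fold change was 5.38 ± 0.41 (adjusted p = 5.22e-06, limma), and a second probe set gave 3.08 ± 0.42. On that second probe set collecting duct read 6.16 and 6.15, within the range of muscle (5.92 to 6.59) and urothelium (5.94 to 7.5).

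Sult1b1, which sulfates thyroid hormone, read 9.57, 9.51 and 8.52 in tubule, against 8.82 and 7.56 in collecting duct, 6.02, 7.49 and 5.98 in smooth muscle and 6.09, 6.29 and 6.24 in urothelium. Tubule and collecting duct overlapped, and the log2 fold change was 2.24 ± 0.42 (adjusted p = 0.00257, limma). Sult1c2 rose by 1.94 ± 0.37 (adjusted p = 0.00313, limma), at 8.71 to 9.8 in tubule and 6.31 to 8.18 elsewhere. Sult1a1, the phenol sulfotransferase, was not called, at 6.13 to 7.6 in tubule and 7.14 to 8.82 elsewhere. Sult1b1 and Sult1d1 lie on chromosome 5, as do the Ugt2b genes.

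**Figure D3:**
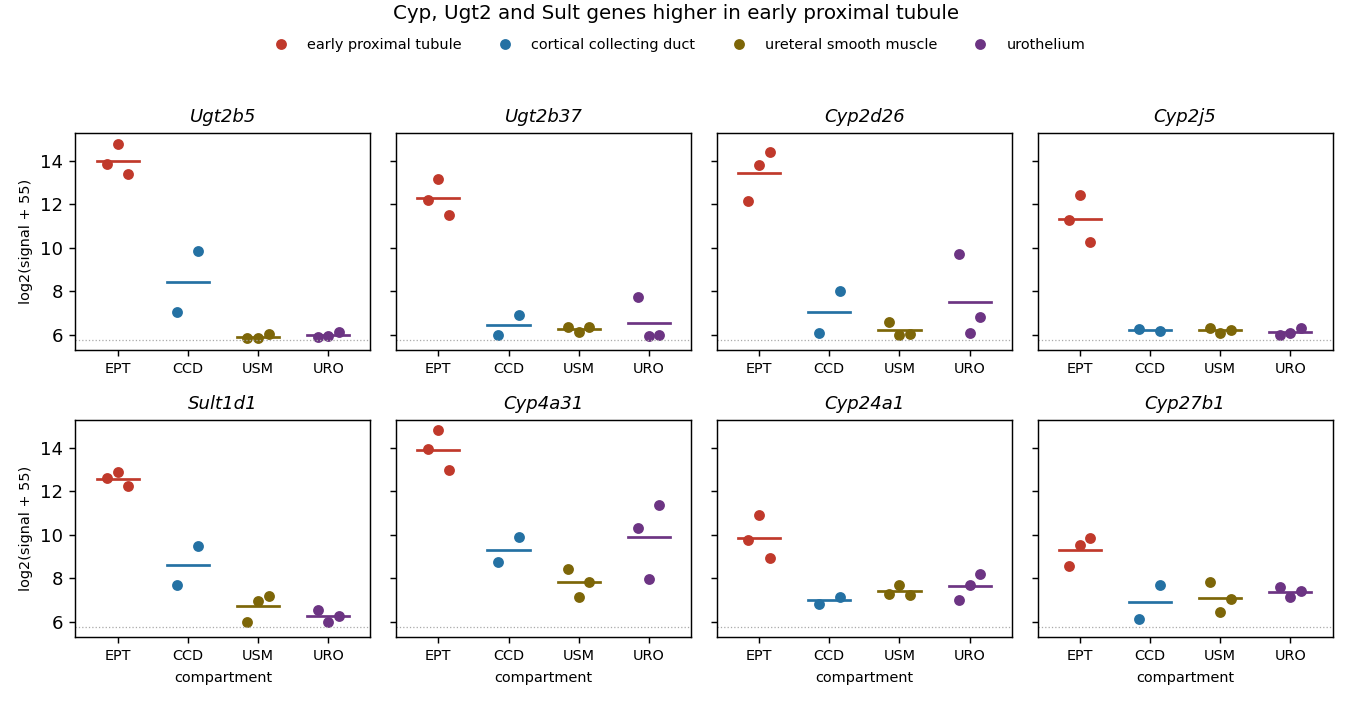
Points are single arrays and lines are compartment means of log2(signal + 55) for Ugt2b5, Ugt2b37, Cyp2d26, Cyp2j5, Sult1d1, Cyp4a31, Cyp24a1 and Cyp27b1; the dotted line is the floor of the scale at 5.78. In every panel the 3 EPT points lie above all other points, and Cyp2j5 shows the other 8 arrays within 6.01 to 6.31.

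Single glutathione S-transferases differed in both directions. Of 17 measured, 3 were higher and 2 lower in proximal tubule (all genes: 9.53% and 6.41%), too few to read as a result of the family. The 6 measured Gstm genes (7 on the array) were called in no compartment against the mean of the others. Gstm5 read 11.71 to 12.07 in tubule and 11.17 to 12.58 elsewhere. Gstp1, of the pi class, read 12.7 to 12.9 in tubule and 13.02 to 14.29 elsewhere, with a log2 fold change of -0.80 ± 0.30 that was not called.

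The alpha class split 3 ways. Gsta2 read 13.22, 14.43 and 12.69 in early proximal tubule, 8.9 and 10.27 in collecting duct, 10.16, 9.75 and 9.83 in urothelium and 6.39, 6.48 and 6.45 in smooth muscle. Tubule was above and muscle below every other array, with log2 fold changes of 4.80 ± 0.40 in tubule (adjusted p = 8.26e-06, limma) and -4.54 ± 0.40 in muscle (adjusted p = 9.37e-06, limma). A probe set annotated to Gsta1, Gsta2 and Gm3776 read 12.49, 13.01 and 12.11 in tubule and 7.14 to 8.91 elsewhere.

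Gsta4, which conjugates hydroxynonenal from lipid peroxidation, read 14.52, 14.57 and 13.42 in urothelium, against 11.4, 11.74 and 11.67 in early proximal tubule, 12.26 and 12.53 in collecting duct and 12.88, 11.8 and 12.11 in smooth muscle. Urothelium was above all others and tubule below all others. It rose by 2.08 ± 0.35 in urothelium (adjusted p = 0.00759, limma) and fell by 1.34 ± 0.35 in tubule (adjusted p = 0.0212, limma), where the call was lost without any 1 of the 3 tubule arrays.

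Gsta3 could not be read with confidence. The probe set used gave 0.21 ± 0.42 in tubule, and another that passed the filter gave -2.45 ± 0.50, with tubule at 6.23, 6.38 and 6.28 on that probe set and collecting duct at 10.53 and 9.21. In smooth muscle the 2 probe sets gave -2.43 ± 0.42 and -1.42 ± 0.50.

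The theta class also went apart, although its genes sit together on chromosome 10. Gstt1, which acts on small halogenated hydrocarbons, read 6.37, 7.23 and 7.2 in early proximal tubule, against 12.25 and 10.85 in collecting duct, 12.14, 11.54 and 11.8 in smooth muscle and 10.5, 6.82 and 9.58 in urothelium. Tubule was low and collecting duct and muscle high, while urothelium replicate 2 lay within the tubule's range. It fell by 3.85 ± 0.62 in tubule (adjusted p = 0.000877, limma) and rose by 2.68 ± 0.62 in muscle (adjusted p = 0.00932, limma).

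Gstt3 read 11.52 and 11.56 in collecting duct, against 8.59, 8.7 and 9.17 in early proximal tubule, 8.31, 6.52 and 7.84 in smooth muscle and 10.63, 10.46 and 10.5 in urothelium. The order was collecting duct, urothelium, tubule and muscle, with no overlap between neighbours. It rose by 2.57 ± 0.43 in collecting duct (adjusted p = 0.00884, limma) and fell by 2.74 ± 0.37 in muscle (adjusted p = 0.000242, limma). The collecting duct call was lost without either collecting duct array. Gstt2 read 9.57, 10.95 and 10.91 in tubule and 7.22 to 8.16 in muscle, with collecting duct and urothelium at 8.8 to 10.18. It rose by 1.55 ± 0.42 in tubule (adjusted p = 0.0233, limma), where its arrays overlapped with collecting duct and urothelium and the call was lost without tubule replicate 2 or 3 or collecting duct replicate 2.

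Gstz1, an isomerase of tyrosine breakdown, read 13.52, 13.48 and 13.29 in early proximal tubule, against 11.49 and 10.3 in collecting duct, 12.17, 11.21 and 11.28 in smooth muscle and 11.46, 12.57 and 11.1 in urothelium. All tubule arrays were above the rest, by 2.04 ± 0.40 (adjusted p = 0.00332, limma). Gsto1, a thiol transferase that can also reduce dehydroascorbate, read 13.29, 13.31 and 12.26 in urothelium, against 11.46, 11.17 and 12.06 in tubule, 10.47 and 10.51 in collecting duct and 11.56, 10.88 and 10.63 in muscle. Urothelium was above all others, by 1.93 ± 0.36 (adjusted p = 0.0126, limma), and a second probe set gave 1.76 ± 0.40. Gsta4 and Gsto1 were the members called higher in urothelium, and each lost its call without urothelium replicate 1 or without replicate 2, the array with the Gapdh ratio of 55.3 (1.88 ± 0.41 and 1.75 ± 0.42 without it, adjusted p = 0.0603 and 0.0922, limma).

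**Figure D4:**
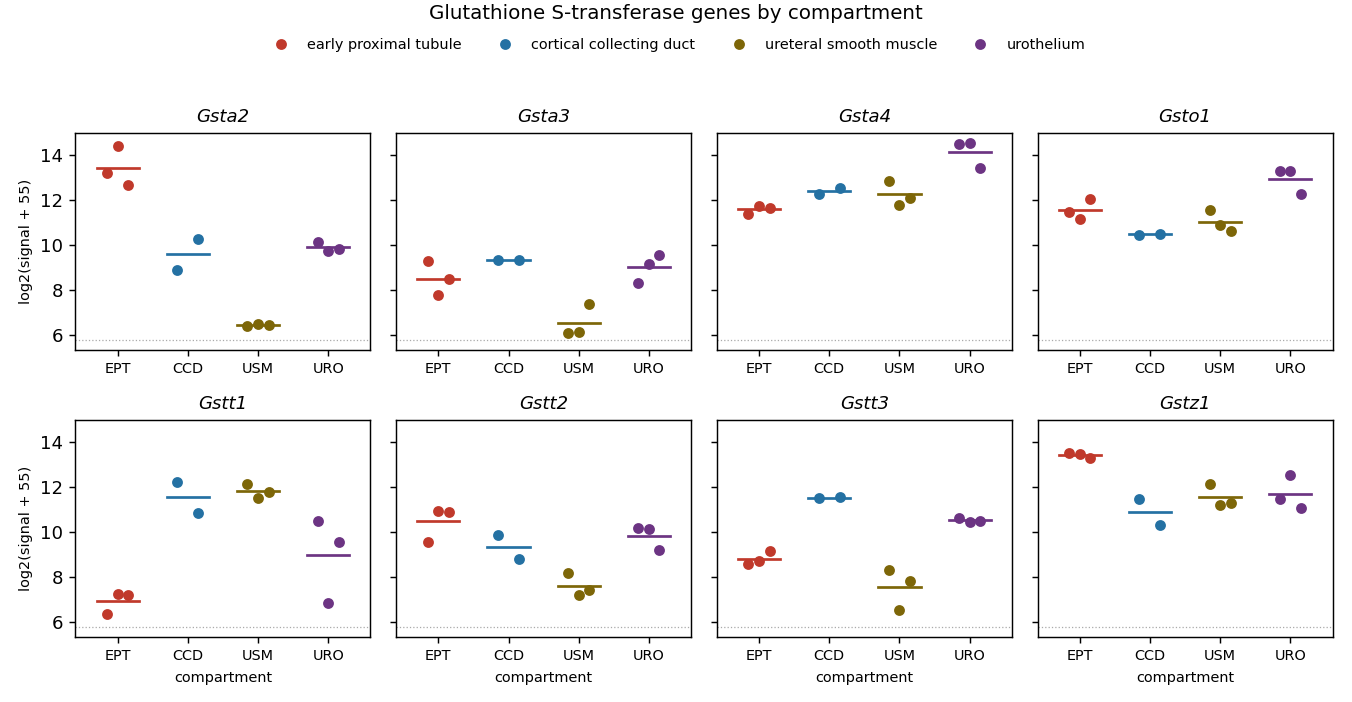
Points are single arrays and lines are compartment means of log2(signal + 55) for Gsta2, Gsta3, Gsta4, Gsto1, Gstt1, Gstt2, Gstt3 and Gstz1; the dotted line is the floor of the scale at 5.78. Gsta2 and Gstz1 are highest in EPT, Gstt3 in CCD, and Gsta4 and Gsto1 in URO, while Gstt1 is low in EPT and spreads in URO.

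In ureteral smooth muscle 12 of the 16 members lower there were among the 22 higher in proximal tubule; the 2 comparisons share arrays. The mean that muscle was set against also holds the tubule's high values: of the 16, 7 were called lower in muscle than in collecting duct, 6 lower than in urothelium, 5 in both pairs and 8 in neither. Cyp2j5, for example, differed by 0.01 ± 0.53 between collecting duct and muscle. The other 4 were Cyp1b1, Gstt3, Gsta3 and Cyp2s1. Cyp2s1, a P450 of epithelia outside the liver, read 7.55, 8.58 and 8.01 in smooth muscle, against 9.63, 9.4 and 9.73 in early proximal tubule, 10.37, 10.22 and 10.47 in urothelium and 10.53 and 9.73 in collecting duct. Muscle was below all others by a log2 fold change of -1.98 ± 0.32 (adjusted p = 0.000908, limma), and the 3 epithelia lay within 9.4 to 10.53. Cyp1b1, an Ahr target that oxidises estradiol, read 8.54, 8.81 and 6.5 in muscle, against 9.78, 10.07 and 10.99 in tubule, 9.42, 8.85 and 11.5 in urothelium and 10.71 and 11.6 in collecting duct. It fell by 2.50 ± 0.60 in muscle (adjusted p = 0.0115, limma), with the lowest urothelium array only just above the muscle arrays, and the call was lost without smooth muscle replicate 3. A second Cyp1b1 probe set gave -1.25 ± 0.56 in muscle, and there muscle (6.22, 7.21 and 5.87) overlapped with urothelium (7.2, 6.06 and 8.52). Ahr itself was highest in muscle, at 15.37, 15.73 and 16.07, against 11.21 to 15.07 elsewhere.

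In urothelium Ugt2b5, Sult1d1, Cyp2j5 and Sult1b1 were lower than the mean of the others, by log2 fold changes of -3.45 ± 0.49, -3.04 ± 0.41, -1.78 ± 0.40 and -1.76 ± 0.42. The mean they were set against holds the tubule's high values. Each read 5.91 to 6.53 in urothelium, near the floor, and urothelium and muscle were called different for none of these 4. The count of 4 was 2 without collecting duct replicate 1, tubule replicate 1, smooth muscle replicate 2, or urothelium replicate 2 or 3.

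Pair by pair, proximal tubule differed from smooth muscle at 29 members (25 higher, 4 lower; all genes called either way: 20.4%), from urothelium at 20 (18 higher, 2 lower; 11.5%) and from collecting duct at 18 (15 higher, 3 lower; 5.84%). Collecting duct was higher than smooth muscle at 7 members and lower at 0 (8.27%; 4 members without collecting duct replicate 2), and urothelium differed from smooth muscle at 9 (8 higher, 1 lower; 7.96%). Urothelium and collecting duct differed at 0 members (0.257%), with 7 at an unadjusted p under 0.05 and 2 called without urothelium replicate 3. Of the 22 members higher in tubule, 15 were called against each of the other 3 compartments, 3 against 2 of them, 3 against 1 and Cyp2j9 against none. These 15 were the 4 Ugt2b genes, Cyp2d26, Cyp2d12, Cyp2j5, Cyp2j11, Cyp2j13, Cyp4a31, Cyp24a1, Cyp27b1, Gsta2, Gstz1 and Sult1d1. Another 25 of the 58 measured members were called in none of the 10 comparisons. The matching shares over all genes were not counted, so these numbers only describe the members.

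Within each pair, the member with the largest tubule excess was Ugt2b5 against muscle (8.07 ± 0.59), Ugt2b5 against urothelium (7.99 ± 0.59) and Cyp2d26 against collecting duct (6.41 ± 0.94). Ugt2b5 is at the floor in muscle and urothelium, so the size of its fold depends on the pseudocount: against muscle it was 9.85 with a pseudocount of 12 and 6.40 with 190. On the low side, Gstt1 was lower in tubule than in muscle (-4.90 ± 0.74) and collecting duct (-4.62 ± 0.83), and Gsta4 was lower in tubule than in urothelium (-2.57 ± 0.43). Gstt3 led the differences of collecting duct from muscle (3.98 ± 0.50), and Gsta2 (3.47 ± 0.48) and Ugt2b34 (3.40 ± 0.37) differed most between urothelium and muscle, in an order that turned with a pseudocount of 190 (2.31 and 2.69). In that pair Gstt1 was the member lower in urothelium (-2.86 ± 0.74), a call lost without urothelium replicate 2 or any 1 of the muscle arrays.

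Where compartments shared a label batch, every member called in that pair kept its sign within it. The calls came from these same arrays, so this agreement was largely built in and is a description only. For tubule minus collecting duct the 15 higher members differed by 1.97 to 6.1 in batch 3 (2 arrays against 1) and by 2.03 to 6.79 in batch 4 (1 against 1). For tubule minus muscle, the 25 higher members differed by 0.76 to 7.97 within batch 4. Ugt2b5 differed from collecting duct by 4.23 and 6.79 in the 2 batches and from muscle by 7.97, and Cyp2d26 by 6.1, 6.06 and 6.12. For urothelium minus muscle, the 8 higher members differed by 1.88 to 3.56 in batch 1 and by 1.64 to 3.76 in batch 2. With batch as a fixed term in the model, 11 members stayed higher in tubule: Ugt2b5, Ugt2b37, Ugt2b34, Ugt2b38, Cyp2d26, Cyp2j5, Cyp2j13, Cyp2j9, Cyp4a31, Gsta2 and Sult1d1. Over all genes 2.01% were higher and 0.977% lower in tubule in that fit. In that model 0 members were lower in tubule, and 9 were lower in muscle (4% of all genes). In urothelium 0 members were higher and 0 lower, and over all genes the shares were also 0% and 0%. In collecting duct 0 members were higher and 0 lower (all genes: 0.022% and 0%). These 0 counts therefore say nothing particular to the members. The median standard error over all genes was 0.581, against 0.39 without the term. Urothelium shared no batch with tubule or collecting duct, so no within-batch value could be had there; the model with the batch term, which links them through the muscle arrays, called 1 member (Ugt2b5) between tubule and urothelium and 11 between tubule and muscle.

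Marker sums moved with some single arrays. Urothelium replicate 1 had a proximal tubule marker sum of 10452, against 3485 and 5898 in the other urothelium arrays. Among members higher in tubule, it was the urothelium array highest in Cyp2d26, Ugt2b37, Gsta2, Gstt2, Sult1c2, Cyp27b1 and the probe set used for Sult1d1. The other members higher in tubule were not highest there. Ugt2b5, for example, read 5.91 there, at the floor, and Cyp4a31 was highest in urothelium replicate 3 (11.38, against 10.31 in replicate 1). Collecting duct replicate 2 had 8534, against 3104 in replicate 1. Of the 22 members higher in tubule, it read higher than replicate 1 in Ugt2b5, Ugt2b37, Cyp2d26, Cyp2j6, Cyp2j9, Cyp2j11 and Cyp2j13. The same held for Cyp4a31, Cyp24a1, Cyp27b1, Gsta2 and the probe set used for Sult1d1. Replicate 2 read lower in Ugt2b34, Ugt2b38, Gstz1, Gstt2, Sult1b1, Sult1c2, Cyp2c38, Cyp2d22 and Cyp2j5, and Cyp2d12 was level. The part of carried-over tubule RNA in these values was not tested. Without urothelium replicate 1 the count higher in tubule was 21, and without collecting duct replicate 2 it was 19.

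Many members are also liver genes. Of 8 hepatocyte markers listed, 7 were on the array and 4 measured, and 1, Afp, was called higher in proximal tubule. Their summed signal was 29554 to 64344 in tubule, against 3875 and 5730 in collecting duct, 1394 to 1676 in muscle and 4589 to 14783 in urothelium. Afp made up most of it, at 14.78 to 15.93 in tubule. Alb, the defining marker, read 8.97 to 9.26 in tubule and 8.13 to 9.26 elsewhere, Ttr was highest in urothelium at 9.46 to 12.79, and Apoa1 was near the floor in tubule at 5.95 to 6.43.

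The machinery around the enzymes was described from 4 textbook lists, whose counts in tubule stand beside 9.53% higher and 6.41% lower over all genes. Of 15 measured genes for catalytic partners and cofactor supply, 4 were higher in proximal tubule and 0 lower (median log2 fold change 0.48, beside 0.05 over all genes). They were Gss, the last enzyme of glutathione synthesis (2.97 ± 0.32), Slc35d1, which carries UDP-glucuronate into the endoplasmic reticulum (1.95 ± 0.37), Papss2, which makes the sulfate donor (1.94 ± 0.53), and Gclm, a subunit of the first enzyme of glutathione synthesis (1.12 ± 0.29). Each of the 3 phase 2 cofactor routes had at least 1 member higher in tubule, and each also held genes that were not called. For sulfate this was Papss2 alone, at 10.34, 12.28 and 10.78 in tubule, overlapping with urothelium (8.97, 9.06 and 10.97). Papss2 was called against muscle but not against collecting duct or urothelium (adjusted p = 0.0827 and 0.159, limma). Ugdh, which makes UDP-glucuronate, was at -0.38 ± 0.34 and Ugp2 at -0.32 ± 0.38. Papss1 was at -0.94 ± 0.36, Gclc at -0.07 ± 0.36, Slc35b2 at 0.64 ± 0.45 and Gsr at 0.57 ± 0.43. With the batch term, 1 gene of this list was called higher in tubule, and 5, 2 and 3 of the lists that follow, against 2.01% of all genes in that fit.

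Among 21 other measured phase 1 and phase 2 enzymes, 8 were higher in tubule and 2 lower (median 0.51). Glyat, which conjugates acids with glycine, rose by 5.24 ± 0.48, and Fmo1, a flavin monooxygenase, by 4.58 ± 0.64. Nat8, which acetylates cysteine conjugates, rose by 2.81 ± 0.39. Mgst1, a membrane-bound glutathione transferase, fell by 2.14 ± 0.30 in tubule, at 12.34, 12.55 and 12.18 there and 13.23 to 15.01 elsewhere, and rose by 1.22 ± 0.30 in urothelium (adjusted p = 0.0484, limma). Inmt, a methyltransferase, rose by 2.34 ± 0.35 in collecting duct (adjusted p = 0.00564, limma), at 11.24 and 11.07 there and 8.36 to 9.31 elsewhere.

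Of 15 measured receptors and regulators of these genes, 3 were higher in tubule (Hnf4a by 5.39 ± 0.72, Vdr, and the bile acid receptor Nr1h4 by 2.65 ± 0.46) and 1, Ahr, fell by 2.63 ± 0.39 (median 0.26). Hnf4a, a nuclear receptor of liver and proximal tubule, read 15.25, 15.2 and 14.8 in tubule and 7.29 to 12.03 elsewhere. In urothelium Rxra was higher, by 1.36 ± 0.32 (adjusted p = 0.0414, limma), and Nr1h4 lower, by -2.03 ± 0.46 (adjusted p = 0.0371, limma). Nr1i2, the xenobiotic receptor that induces many of these enzymes in liver, was not called, at 0.07 ± 0.57.

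Of 9 measured efflux transporters, 5 were higher in tubule and 0 lower (median 1.99). Slc47a1, an exporter of organic cations, read 15.67, 16.11 and 15.88 in early proximal tubule, 8.4 and 10.84 in collecting duct, 12.1, 12.88 and 12.51 in urothelium and 5.97, 7.76 and 5.93 in smooth muscle. It rose by 6.33 ± 0.51 in tubule (adjusted p = 6.96e-06, limma). Abcc6 rose by 3.03 ± 0.40, Abcc2, which exports glucuronide and glutathione conjugates, by 2.54 ± 0.43, Abcg2 by 2.22 ± 0.50 and Abcb1a by 1.99 ± 0.46. Abcc3 instead rose in urothelium, by 3.38 ± 0.50 (adjusted p = 0.00301, limma), at 11.77, 12.87 and 10.83 there and 6.65 to 9.71 elsewhere.

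Promoter windows of 300 bases (250 before and 50 after the start, RefSeq, GRCm38.p6) were found for 47 of the 58 measured members, 17 of them among the 22 higher in tubule. Letters were searched on both strands. GTTAAT, known for Hnf1 factors, was in 2 of the 17 windows (11.8%), in 2 of the 30 other members' windows (6.67%) and in 7.22% of all 27025. CAAAGTCCA, known for Hnf4, was in 0 of the 17, 2 of the 30 (6.67%) and 0.474% of all. TGANNNNGC, the antioxidant response core, was in 41.2%, 43.3% and 41.4%, and GCGTG, the xenobiotic response core, in 23.5%, 30.0% and 32.5%. TATAAA was in 29.4%, 16.7% and 14.2%. With 17 windows these shares are descriptions, and a match is not a shown binding site. The 100 bases before the start of both GTTAAT genes follow, with the match, or its reverse complement, in capitals:
Sult1d1: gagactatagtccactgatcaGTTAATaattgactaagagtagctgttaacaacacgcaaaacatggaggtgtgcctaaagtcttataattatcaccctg
Cyp2d26: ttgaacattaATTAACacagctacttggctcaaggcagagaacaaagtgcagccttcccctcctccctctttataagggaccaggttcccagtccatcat
The Sult1d1 window is chr5:87569007-87569106 and the Cyp2d26 window chr15:82794246-82794345, both on the minus strand, and the matches begin at -79 and -90, counted from the gene's start.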

How the data were processed

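Each of the 11 one-colour Affymetrix arrays gave 45101 probe set values, deposited by the authors as linear intensity. The submitters' processing notes name GCOS without a version. The mean signal without the lowest and highest 2% was 1500 on every array, so the scaling was kept. No detection calls were used, and 0 value columns belonged to no sample. Array quality differed: the median signal was 247.1 to 400.6, and the Gapdh 3'/5' ratio 6.79 to 55.3, highest in urothelium replicate 2.

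The analysis used log2(signal + 55), with a pseudocount near the 20th percentile of all values. Probe sets above their array's median in at least 2 arrays and annotated to 1 symbol were kept, and each gene was read from the probe set with the highest mean. Of all probe sets, 34945 had 1 symbol, 932 several and 9160 none. limma 3.58.1 (R 4.3.3) fitted 1 mean per compartment over 11 arrays (7 residual and 6.38 prior degrees of freedom), and p-values were Benjamini-Hochberg adjusted over 13614 genes. The procedure was tested on simulated data. Replicate numbers follow accession order and pair nothing.

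The members and lists were chosen with earlier results of these data known. Named were the called members of each comparison with the mean of the others (the rule takes up to 15 higher and 8 lower), the called member with the largest fold each way in each pair, the 2 members of each enzyme group with the highest mean and up to 4 genes of each list by moderated t; the rest of the 22 members higher in tubule, Cyp2e1, Cyp11a1, Cyp21a1, Ugdh, Nr1i2, the genes of shared probe sets and some further members given array by array were chosen after their values were seen. So were Aqp1, Cyp4f13 and the further genes of cofactor supply that were not called. Alternatives covered normalization, pseudocount, filter, probe set choice, variance model, label batch and leaving out each array. Figures used matplotlib 3.10.9 (Python 3.11.15, pandas 2.3.3).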

Additional observations from a re-analysis of the deposited data

How the results depend on the processing

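No paired analysis was possible because the replicate numbers follow accession order and only name arrays, so no replicate block was fitted; the label batches, which do tie arrays across compartments, were fitted as a block instead. Counts of called members are given as in the report, then under the alternatives that moved them by over 1.5 times. The label batch as a fixed block gave 11 members higher and 0 lower in early proximal tubule (22 and 3), 0 higher in collecting duct (2), 0 higher and 9 lower in smooth muscle (1 and 16), 0 higher and 0 lower in urothelium (2 and 4), and 11, 1 and 3 for tubule against muscle (29), tubule against urothelium (20) and collecting duct against muscle (7); as a random block (correlation 0.0268) it moved no count. With the fixed block, 0% of all genes were called in urothelium in either direction, and 0.022% were higher and 0% lower in collecting duct. A filter at the 75th percentile, which leaves 25 members, gave 12 higher and 5 lower in tubule, 2 higher in muscle, 18 for tubule against muscle and 1 for urothelium against collecting duct (0). A pseudocount of 190 gave 1 lower in collecting duct (0), 2 higher in muscle and 2 for urothelium against collecting duct; a pseudocount of 12, no filter, and leaving out x, s and a probe sets each gave 1 higher in collecting duct. Quantile normalization gave 2 lower in urothelium; eBayes with trend and robust gave 2 lower there, 2 higher in muscle and 1 for urothelium against collecting duct. Leaving out 1 array at a time gave, higher and lower, 16 to 22 and 2 to 4 in tubule, 0 to 3 and 0 to 1 in collecting duct, 1 to 2 and 13 to 17 in muscle and 0 to 2 and 2 to 5 in urothelium. The pairs gave 12 to 20 (tubule and collecting duct, 18), 23 to 29 (tubule and muscle), 14 to 21 (tubule and urothelium), 4 to 8 (collecting duct and muscle), 0 to 2 (urothelium and collecting duct) and 6 to 10 (urothelium and muscle, 9). Gsta3 in tubule against muscle reversed under the stricter filter, to -0.77 ± 0.57 (adjusted p = 0.34, limma), where its other probe set is the one used. Dim genes near the floor give compressed folds, and no detection calls were available to separate absence from low signal.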
